A study of Xenopus laevis with 12 samples.

Results

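The genes described here encode molecular chaperones and their co-chaperones in embryos of the frog Xenopus laevis. They were taken by annotated symbol, with the copy suffix removed, as genes whose names start with hspa, hspb, hspd, hspe, hsph, hsp90a, dnaja, dnajb, dnajc, cct, pfdn or bag, together with tcp1, stip1 and hsf1. The ER chaperone gene hspa5 was left out. One probe set was kept for each symbol, the one of highest mean log2(signal + 16), which gave 60 genes of the 7531 that the array names with 1 probe set each. The rule itself used no difference between the groups, but the genes were chosen with earlier results of these data known.

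The embryos were 6 controls given GFP mRNA and 6 given Nkx2-5 mRNA together with GFP mRNA, with injection in embryos of 8 cells and collection of single whole embryos at stage 11.5, late in gastrulation. GFP is the jellyfish fluorescent protein, which both groups received, and Nkx2-5 is a homeobox protein needed for normal heart development. The labels give no strain, mRNA dose or parentage. All 12 embryos carry the label of a single experiment, so p-values rest on the spread among these embryos alone. Each embryo was measured on its own 1-colour Affymetrix array. The study looked for genes that respond to Nkx2-5, and the comparison here asks how much the chaperone transcripts took part.

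Chaperones bind unfolded protein and help it reach its folded state. HSP70 proteins do so in cycles of ATP hydrolysis, which J proteins (the dnaj genes) start and nucleotide exchange factors end, and HSP90 completes the folding of many kinases and receptors. The chaperonin CCT is a ring of different subunits that folds actin and tubulin, which prefoldin delivers to it, while HSP60 and HSP10 form the chaperonin of mitochondria. In many animal cells heat or misfolded protein activates the transcription factor HSF1, which raises several of these transcripts, and the frog egg stores many of them as maternal RNA.

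The name "cytosolic and mitochondrial" holds for most of the 60 genes, but 8 encode J proteins known from the ER of other vertebrates, namely dnajb9.L, dnajb11.L, dnajb11.S, dnajb12.S, dnajb14.S, dnajc1.S, dnajc3.L and dnajc25.S. Another 8 act in mitochondria. Genes named by the rule but not known as folding factors include hsf1, dnajc8.S, dnajc21.L and dnajc27.L. Xenopus laevis is tetraploid and carries L and S copies of many genes, and 11 genes had both copies among the 60. The probe sets of 8 genes have identifiers ending in s_at or x_at and can detect more than 1 transcript. These genes are cct2.S, cct5b, dnaja3.L, dnajb11.L, dnajb11.S, dnajb12.S, dnajc27.L and pfdn5.S.

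Gastrula markers spanned a wide range of mean signals over the 12 embryos, from 276 to 25777 for mesoderm and organizer, from 26 to 4321 for endoderm and from 523 to 7724 for ectoderm and neural plate. tbxt.S, the Brachyury gene of mesoderm, had mean signals of 7781 (GFP) and 8353 (Nkx2-5+GFP), while hhex.L, an endoderm gene, had 33 and 18.9. The lists of gastrula markers had 1 gene that rose and 0 that fell of 15 for mesoderm and organizer, 0 and 2 of 13 for endoderm, and 4 and 1 of 10 for ectoderm and neural plate. Those that rose were tbxt.2.S (1.82-fold), itln1.L (5.63-fold), krt12.4.S (2.4-fold), krt12.4.L (2.23-fold) and grhl1.L (1.44-fold). Those that fell were mix1.L (0.425-fold), mix1.S (0.409-fold) and sox3.L (0.701-fold). Of all probe sets 3.12% were called higher and 3.26% lower. Of 14 genes of later tissues, 1 rose and 0 fell, with a median of their mean signals of 40.7. The gene that rose, syt1.L, had mean signals of 451 (GFP) and 741 (Nkx2-5+GFP). That list summed to 1005 to 1218 in GFP and to 1242 to 1794 in Nkx2-5+GFP embryos. Maternal and germ plasm genes, 14 measured, included 4 that fell and 0 that rose, with sums of 62194 to 82399 in GFP and 55514 to 65398 in Nkx2-5+GFP embryos. Of 6 stress and p53 genes, ccng1.L rose, with mean signals of 4279 (GFP) and 9553 (Nkx2-5+GFP), and the other 5 did not pass. The list summed to 13405 to 20838 in GFP and to 19281 to 29697 in Nkx2-5+GFP embryos. Such sums weigh the brightest genes most, so the sums alone do not show that a whole list shifted. The maternal and germ plasm genes that fell were grip2.L, mos.L, wee2.S and ccnb1.2.L. In that list 1 of 14 differences was positive, with a median log2 difference of -0.32. Positive differences were found for 10 of 14 genes of later tissues (median 0.18) and 5 of 6 stress and p53 genes (median 0.41). Of all probe sets 47.7% were positive. The part that these shifts have in the results on chaperones was not tested. A probe set for nkx2-5.S itself had signals of 57.4 to 138 in GFP and 122 to 233 in Nkx2-5+GFP embryos, with 5 of 6 above every GFP embryo (log2 difference 0.77, limma adjusted p = 0.0431), and whether these probes lie in the injected RNA is not given in the sources used here. A further probe set for nkx2-5.S, with signals of 64.1 to 125 in GFP and 115 to 187 in Nkx2-5+GFP embryos, did not pass (log2 difference 0.52, limma adjusted p = 0.0731). The call of the former was lost in fits that left out GFP embryo 2, 3 or 6, and in those that left out any Nkx2-5+GFP embryo other than embryo 5, where limma adjusted p-values reached 0.106. The same call was missed without the intensity trend (limma adjusted p = 0.0602), with array weights (limma adjusted p = 0.0592), with the replicate block (limma adjusted p = 0.0615) and with the beta-actin ratio in the fit (limma adjusted p = 0.0547). The ratio of the 3′ to the 5′ control probe set of beta-actin, a sign of RNA and labelling quality, lay between 2.81 and 4.27 in GFP and between 2.68 and 3.33 in Nkx2-5+GFP embryos (exact permutation p = 0.154). For Gapd the ratio was larger, between 23 and 47.3 in GFP and between 18.6 and 33.5 in Nkx2-5+GFP embryos (exact permutation p = 0.292). GFP embryo 3 had the highest Gapd ratio. In Nkx2-5+GFP embryo 6 the spiked hybridization control BioB gave 940, while the other arrays gave 423 to 525. BioC gave 1853 there and 917 to 1244 in the others. The 10th percentile of signals was 24.9 there and 17.5 to 20 in the others. Each nkx2-5.S probe set was highest in that embryo, and the part of that array in dim signals was not tested.

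Chaperone transcripts differed little between the groups. Of the 60 genes, 1 rose, 0 fell and 59 did not pass, which is 1.67% called where 6.38% of all probe sets were called changed (limma, p adjusted by Benjamini-Hochberg across 15491 probe sets). The gene that rose was cct5b, which encodes a CCT subunit, by 1.19-fold. The median log2 difference was 0.02 over the 60 genes and -0.02 over all probe sets. The middle 50% of the chaperone differences lay between -0.12 and 0.13, and that of all probe sets between -0.21 and 0.17. In whole embryos, fewer cells of a type and less RNA per cell cannot be told apart.

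**Figure D1:**
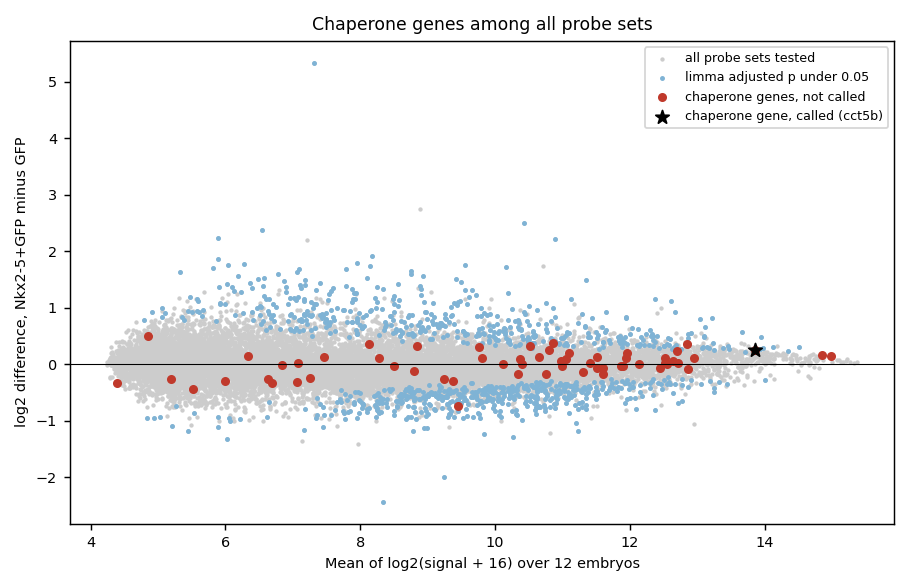
Each point is a probe set, with its mean log2(signal + 16) over the 12 embryos on the x axis and its log2 difference, Nkx2-5+GFP minus GFP, on the y axis. Chaperone genes (red) lie between -0.73 and 0.50, and the star marks cct5b, the 1 chaperone gene called by limma among 988 called probe sets (blue).

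At an unadjusted p under 0.05, 8 chaperone genes were higher and 2 lower, or 16.7% of the 60. Of all probe sets 24.3% lay under that value, 10.9% higher and 13.3% lower. The groups overlapped in all 60 genes, while 2.99% of all probe sets had groups that did not overlap, 1.57% with Nkx2-5+GFP embryos higher and 1.42% with them lower. A difference was positive in 35 of the 60 genes, or 58.3%, beside 47.7% of all probe sets. That count depended on the scaling, with 32 positive after quantile normalization, 40 after scaling by the array median, which moved the median of all probe sets from -0.02 to 0.03, and 29 with the beta-actin ratio in the fit.

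The spread between embryos bounds how large an unseen change could be. The 95% interval of the difference lay within 1.5-fold in either direction for 41 of the 60 genes, or 68.3%, and for 51.0% of all probe sets. Chaperone genes were mostly bright, with 45 of 60 at or above the median level of all probe sets. Among those 45 the interval lay within 1.5-fold for 39, or 86.7%, beside 73.0% of the probe sets at or above that level, and 1 of the 45 was called, or 2.22%, beside 9.46%. The 6 bright genes with a wider interval were cct5.S, dnajb11.L, dnajb14.S, dnajc27.L, dnajc3.L and hspbp1.L. Of the 15 dimmer genes 2 had an interval within that bound, so their differences were measured less closely.

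**Figure D2:**
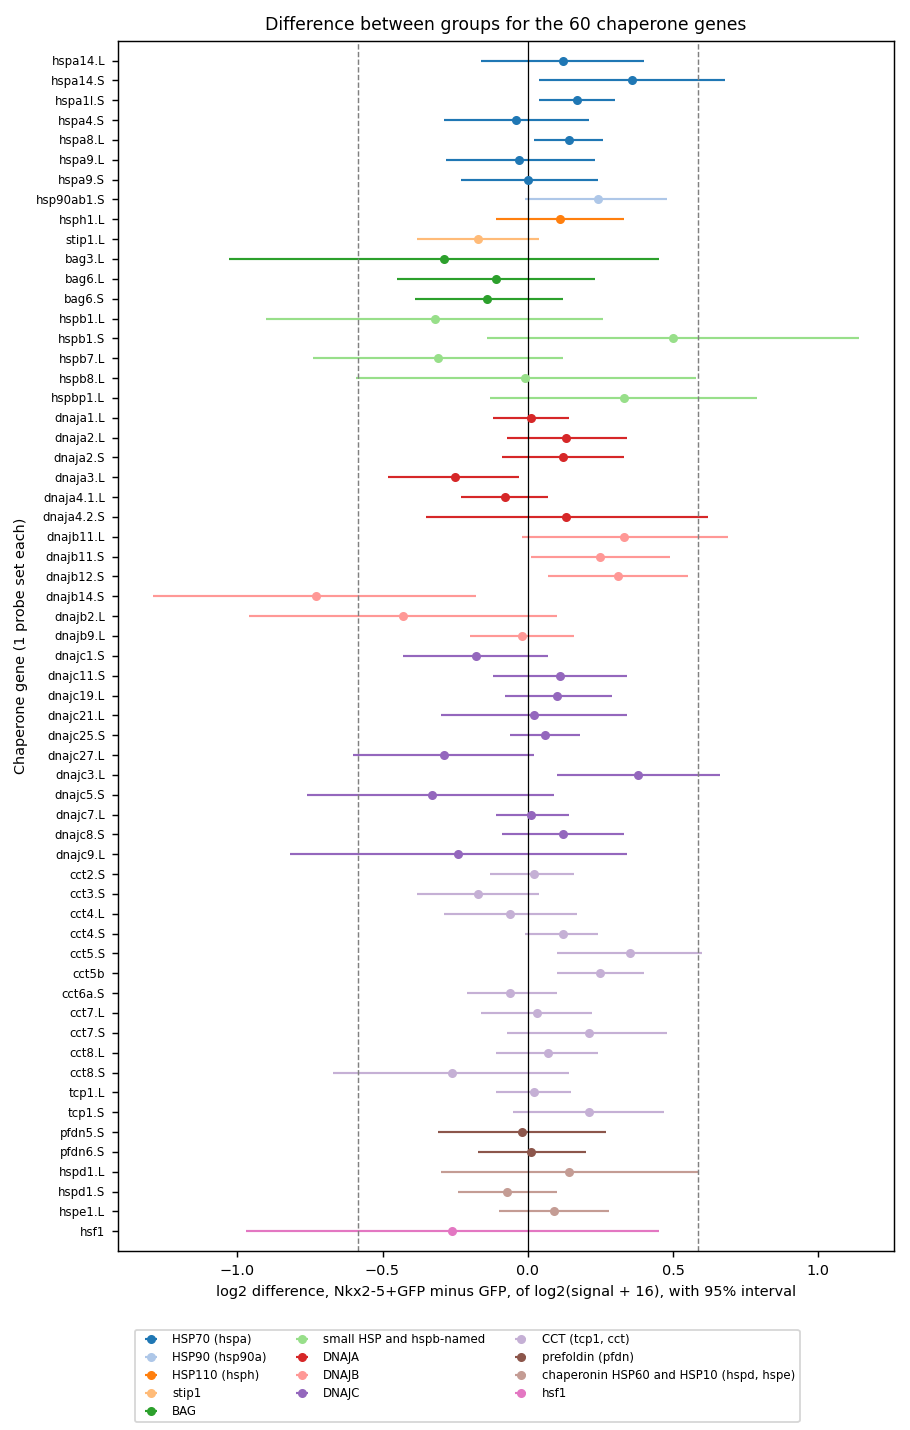
The log2 difference of each of the 60 genes on the log2(signal + 16) scale (points) is drawn with its 95% interval from limma (bars), coloured by family, and dashed lines mark 1.5-fold in either direction. The intervals of 41 genes stay between the dashed lines, and dnajb14.S has the largest negative difference, at -0.73.

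Of the 7 HSP70 genes, 0 rose, 0 fell and 7 did not pass, where 6.38% of all probe sets were called. An unadjusted limma p under 0.05 was found for 3, all higher, or 42.9%. Of all probe sets 24.3% lay under that value, 10.9% higher. hspa8.L, which encodes the constitutive HSP70 of the cytosol, had signals of 28515, 31096 and 33264 (lowest, median and highest) in GFP embryos and of 30908, 34260 and 35686 in Nkx2-5+GFP embryos. The Nkx2-5+GFP embryos lay higher, with 5 of 6 above every GFP embryo, but the groups overlapped. The log2 difference was 0.14 with an SE of 0.0572, which did not pass (limma adjusted p = 0.14, exact permutation p = 0.0152). hspa1l.S, another HSP70 gene, had signals of 25350, 28663 and 30112 in GFP and of 30016, 31514 and 32812 in Nkx2-5+GFP embryos, again with 5 of 6 above every GFP embryo. Its log2 difference of 0.17 (SE 0.0596) did not pass either (limma adjusted p = 0.0955, exact permutation p = 0.00433). The 95% intervals ended at 1.2-fold for hspa8.L and at 1.23-fold for hspa1l.S. Over the alternatives tried, the log2 differences ran from 0.05 to 0.19 for hspa8.L and from 0.09 to 0.22 for hspa1l.S, and neither ever passed.

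hspa14 encodes an HSP70 that in mammals sits at the ribosome. Its S copy, hspa14.S, had signals of 198, 235 and 268 in GFP and of 218, 309 and 417 in Nkx2-5+GFP embryos, with 4 of 6 of the latter above every GFP embryo. The log2 difference of 0.36 (SE 0.15) did not pass (limma adjusted p = 0.158). In its L copy, hspa14.L, the means were 286 ± 47 and 309 ± 27.7 (SD, n = 6 each). hspa9, the HSP70 of the mitochondrial matrix, also had both copies measured, and neither was shifted by more than its SE. The log2 difference was -0.03 (SE 0.12) for hspa9.L and 0.00 (SE 0.11) for hspa9.S. hspa4.S, an HSP110-type exchange factor of the cytosol, differed by -0.04 (SE 0.12).

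HSP90 and the proteins that work with it gave small differences of either sign. hsp90ab1.S, the constitutive cytosolic HSP90 gene, had signals of 5358, 6139 and 6951 in GFP and of 5148, 7431 and 8636 in Nkx2-5+GFP embryos. Nkx2-5+GFP embryos 1, 2, 3 and 4 lay above every GFP embryo, and Nkx2-5+GFP embryo 5 lay below them all. The log2 difference of 0.24 (SE 0.12) did not pass (limma adjusted p = 0.23, exact permutation p = 0.115). Without Nkx2-5+GFP embryo 5 it was 0.33 and passed (limma adjusted p = 0.0394). Leaving out that embryo raised the calls among all probe sets from 988 to 1485. hsph1.L, an HSP110 exchange factor gene, had signals of 3069, 3794 and 4686 in GFP and of 3475, 4116 and 4695 in Nkx2-5+GFP embryos. These are largely the same range, with a log2 difference of 0.11 (SE 0.10, exact permutation p = 0.348). stip1.L encodes Hop, which links HSP70 to HSP90, and its signals were 2921, 3161 and 3828 in GFP and 2584, 2903 and 3524 in Nkx2-5+GFP embryos. It leaned lower, with 3 of 6 Nkx2-5+GFP embryos below every GFP embryo. The difference of -0.17 (SE 0.10) did not pass (limma adjusted p = 0.327, exact permutation p = 0.134).

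BAG proteins release nucleotide from HSP70 or, in the case of BAG6, escort membrane proteins to the ER. bag6.S had signals of 2104, 2709 and 2878 in GFP and of 1899, 2421 and 3088 in Nkx2-5+GFP embryos (exact permutation p = 0.307). Its L copy bag6.L differed by a like amount, -0.11 (SE 0.16) beside -0.14 (SE 0.12). bag3.L, a partner of small heat shock proteins, was dim and spread widely, at 61.7 ± 32.3 in GFP and 45.9 ± 23.3 in Nkx2-5+GFP embryos (SD, n = 6 each). Neither bag6 copy nor bag3.L passed.

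Small heat shock proteins bind unfolded protein without ATP, and their probe sets were dim. hspb1.L and hspb1.S had mean signals of 9.69 and 10.1 in GFP and of 2.88 and 20.2 in Nkx2-5+GFP embryos, and both copies spread widely within groups. In hspb1.L, GFP embryos 1 and 6 lay at 26 and 25.9, while the other GFP embryos reached no higher than 2.21. hspb1.S had the largest positive difference of the 60 genes, 0.50 (SE 0.30), and did not pass (limma adjusted p = 0.333). Its highest signal, 44.5, was in Nkx2-5+GFP embryo 6, the array with the high BioB control. hspb7.L, known from heart muscle in other vertebrates, had signals of 81.8 to 203 in GFP and of 79.8 to 133 in Nkx2-5+GFP embryos and differed by -0.31 (SE 0.20), while its other probe set differed by 0.04. hspb8.L, a partner of BAG3, differed by -0.01 (SE 0.28). hspbp1.L, which the name rule puts here, encodes an HSP70-binding exchange factor. Its signals of 204, 456 and 556 in GFP and of 401, 492 and 685 in Nkx2-5+GFP embryos overlapped broadly (exact permutation p = 0.238).

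Among 23 genes of J proteins 0 rose and 0 fell, where 6.38% of all probe sets were called. An unadjusted p under 0.05 was found for 5, or 21.7%, near the 24.3% of all probe sets. In the DNAJA family, which works with cytosolic or mitochondrial HSP70, dnaja4.1.L had the brightest probe set. Its signals were 7092, 7639 and 8180 in GFP and 6119, 7445 and 7898 in Nkx2-5+GFP embryos (exact permutation p = 0.229). dnaja1.L differed by 0.01 (SE 0.0615). The copies dnaja2.L and dnaja2.S differed by 0.13 and 0.12. dnaja4.2.S had the dimmest probe set of the family, at 157 ± 47.2 and 175 ± 55.5 (SD, n = 6 each).

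The probe set kept for dnaja3.L, the J protein of mitochondria called Tid1, was lower in Nkx2-5+GFP embryos without passing. Its identifier ends in s_at, so it can detect more than 1 transcript. Its signals were 552, 671 and 706 in GFP and 476, 535 and 615 in Nkx2-5+GFP embryos, with 4 of 6 below every GFP embryo (log2 difference -0.25, SE 0.10, limma adjusted p = 0.151, exact permutation p = 0.0216). The array holds another pair of dnaja3.L probe sets, which differed in sign. In the dimmer of them the groups did not overlap, with GFP embryos from 199 upward and Nkx2-5+GFP embryos up to 194, and it did not pass (limma adjusted p = 0.0996). In the other the log2 difference was 0.09 (limma adjusted p = 0.736).

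The J proteins of the ER, 8 genes, had log2 differences from -0.73 to 0.38. Of the 8, 0 were called, where 6.38% of all probe sets were called. An unadjusted p under 0.05 was found for 3 that were higher and 1 that was lower, where 10.9% of all probe sets were higher and 13.3% lower at that value. dnajb14.S, a J protein of the ER membrane, had signals of 475, 832 and 1581 in GFP and of 313, 590 and 838 in Nkx2-5+GFP embryos. GFP embryos 3, 4 and 6 lay above every Nkx2-5+GFP embryo, Nkx2-5+GFP embryos 1 and 4 lay below every GFP embryo, and GFP embryo 5 was the lowest of its group. The log2 difference of -0.73 (SE 0.26) did not pass (limma adjusted p = 0.101, exact permutation p = 0.0433). Without GFP embryo 5 it was -0.91 and passed (limma adjusted p = 0.0279), in a fit that called 1484 of all probe sets, beside 988 with all embryos.

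dnajc3.L, which encodes P58IPK, a J protein of the ER lumen, went the other way without passing. Its signals were 1336, 1558 and 1925 in GFP and 1756, 1998 and 3088 in Nkx2-5+GFP embryos, with 4 of 6 above every GFP embryo (log2 difference 0.38, SE 0.13, limma adjusted p = 0.0964). dnajb12.S, another ER membrane J protein, had signals of 678, 773 and 851 in GFP and of 815, 911 and 1319 in Nkx2-5+GFP embryos. Of its Nkx2-5+GFP embryos 5 of 6 lay above every GFP embryo (log2 difference 0.31, SE 0.11, limma adjusted p = 0.112, exact permutation p = 0.00433). The probe sets of both copies of dnajb11, the ERdj3 gene, were higher, by 0.33 (SE 0.17) for dnajb11.L and 0.25 (SE 0.11) for dnajb11.S. Neither passed (limma adjusted p = 0.242 and 0.18). Their identifiers end in x_at, so the copies may not have been measured apart. The other probe sets gave 0.40 for dnajb11.L and 0.15 for dnajb11.S.

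Among the other ER genes the groups were close. dnajb9.L, the ERdj4 gene, had signals of 3274, 3797 and 4166 in GFP and of 3382, 3631 and 4392 in Nkx2-5+GFP embryos. The ranges nearly coincided (exact permutation p = 0.784). dnajc25.S had the brightest probe set of the DNAJC family, with signals of 6054, 6238 and 6370 in GFP and of 5935, 6584 and 6748 in Nkx2-5+GFP embryos. Although 5 of 6 Nkx2-5+GFP embryos lay above every GFP embryo, the log2 difference was 0.06 (SE 0.0565, exact permutation p = 0.0671). dnajc1.S differed by -0.18 (SE 0.12).

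**Figure D3:**
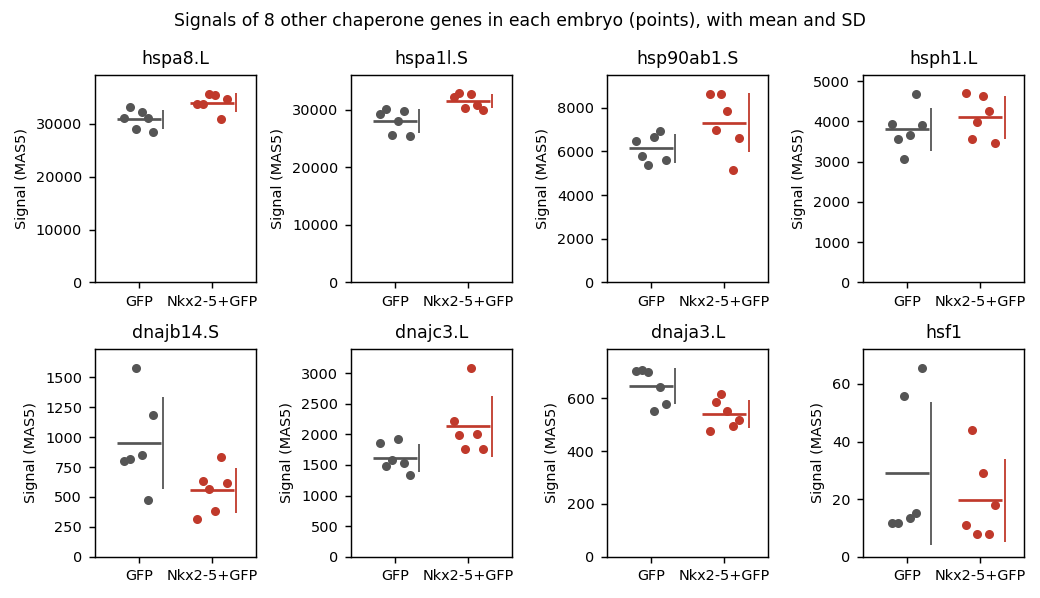
Signals of 8 chaperone genes are shown for each GFP embryo (grey) and Nkx2-5+GFP embryo (red), with horizontal lines at the means, vertical lines for the SD (n = 6 each) and y axes that start at 0. The groups overlap in every panel, narrowly in hspa1l.S, where GFP embryos reach 30112 and Nkx2-5+GFP embryos start at 30016.

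The remaining J proteins covered a range from -0.43 to 0.12 on the log2 scale. dnajc7.L, a co-chaperone that binds both HSP70 and HSP90, was among the least variable genes, with an SD within groups of 0.0511 on the log2 scale and a difference of 0.01 (SE 0.0587). dnajc19.L and dnajc11.S, which encode J proteins of mitochondrial membranes, differed by 0.10 and 0.11. dnajc8.S, known from the spliceosome, differed by 0.12 (SE 0.10), and dnajc21.L, a ribosome assembly factor, by 0.02 (SE 0.15). dnajc27.L, which joins a J domain to a Rab-like GTPase, differed by -0.29 (SE 0.15). dnajb2.L and dnajc5.S, both known from neurons in mammals, were dim, with means of 38.9 and 103 in GFP and of 25.3 and 77.3 in Nkx2-5+GFP embryos. dnajc9.L, a histone chaperone gene, had a GFP embryo at 335 beside a group median of 144.

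Of the 13 CCT genes, 1 rose, 0 fell and 12 did not pass, and 11 had a 95% interval within 1.5-fold. The share that rose is 7.69%, or 1 gene, where 3.12% of all probe sets were called higher. cct5b, the gene that rose, had signals of 12003, 13676 and 15562 in GFP and of 14797, 16346 and 17343 in Nkx2-5+GFP embryos. In Nkx2-5+GFP embryos 1, 2, 4 and 5 it lay above every GFP embryo, and GFP embryo 5 was the only control within the range of the other group. The log2 difference was 0.25 with an SE of 0.0694 (limma adjusted p = 0.0442, exact permutation p = 0.00649). cct5.S, which encodes the same subunit, had signals of 5235, 6536 and 8311 in GFP and of 6803, 8798 and 9460 in Nkx2-5+GFP embryos, a log2 difference of 0.35 (SE 0.12) that did not pass (limma adjusted p = 0.0814). The identifier of the cct5b probe set ends in s_at, so cct5b and cct5.S may not have been measured apart.

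The call of cct5b was narrow. It was lost without GFP embryo 1, 2, 3, 4 or 6 (limma adjusted p = 0.0522, 0.073, 0.106, 0.0907 and 0.0766) and without Nkx2-5+GFP embryo 1, 2, 4 or 6 (limma adjusted p = 0.107, 0.0778, 0.0853 and 0.0591). It was also lost after quantile normalization, where the difference was 0.15 (limma adjusted p = 0.179), after scaling by the array median, without the intensity trend, with the replicate number as a block (limma adjusted p = 0.0532) and with the beta-actin ratio in the fit (limma adjusted p = 0.155). The difference kept its sign, at 0.15 to 0.30 over these alternatives and the others tried. cct5.S passed without GFP embryo 5, with a difference of 0.42 (limma adjusted p = 0.0293). That fit called 1484 of all probe sets, beside 988 with all embryos.

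None of the other 11 CCT genes passed, and their log2 differences ran from -0.26 to 0.21. The copies of tcp1, the founding subunit, differed by 0.02 (SE 0.0603) for tcp1.L and by 0.21 (SE 0.12) for tcp1.S. In tcp1.S, Nkx2-5+GFP embryos 1, 3, 4 and 6 lay between 4697 and 4893, above every GFP embryo, while Nkx2-5+GFP embryo 5 lay at 2742, below them all. Without that embryo the difference was 0.34 and passed (limma adjusted p = 0.0154), in a fit that called 1485 of all probe sets, beside 988 with all embryos. cct2.S, cct4.L, cct6a.S, cct7.L and cct8.L differed by -0.06 to 0.07, each by less than its SE. cct4.S was higher in 5 of 6 Nkx2-5+GFP embryos than in every GFP embryo, with a difference of 0.12 and an SE of 0.0606 (limma adjusted p = 0.262, exact permutation p = 0.0195). cct7.S differed by 0.21 (SE 0.13) and cct3.S by -0.17 (SE 0.10), and cct8.S, the dim one, by -0.26 (SE 0.19), none of which passed.

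**Figure D4:**
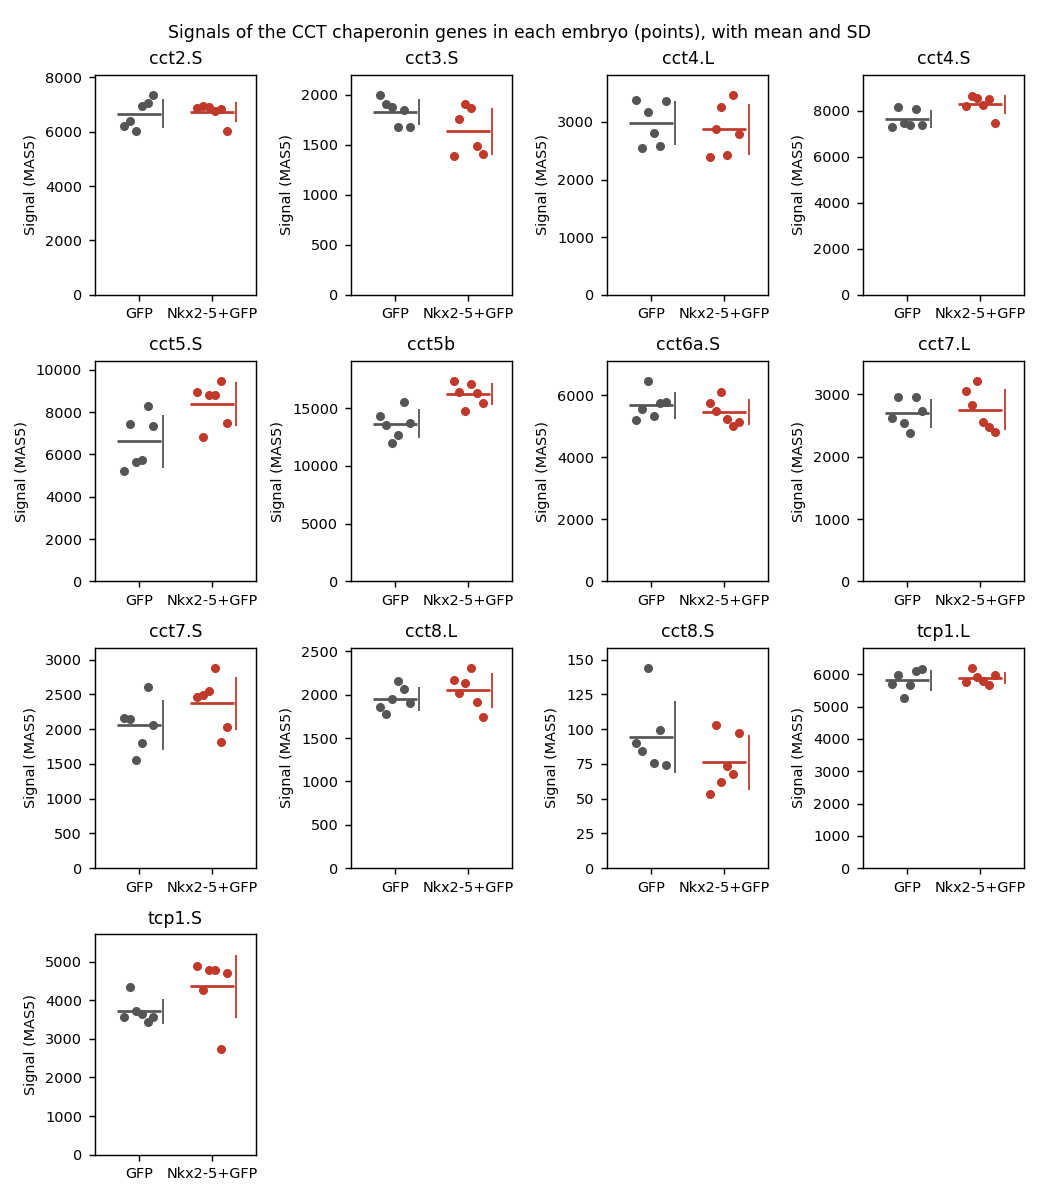
Signals of the 13 CCT genes in each GFP embryo (grey) and Nkx2-5+GFP embryo (red), with means as horizontal lines, the SD (n = 6 each) as vertical lines and y axes from 0. In cct5b the Nkx2-5+GFP embryos reach from 14797 to 17343 and the GFP embryos from 12003 to 15562, and in tcp1.S Nkx2-5+GFP embryo 5 stands apart at 2742.

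Prefoldin subunits, which hand nascent actin and tubulin to CCT, gave differences near 0. pfdn5.S had signals of 1292, 2280 and 2292 in GFP and of 1825, 1882 and 2606 in Nkx2-5+GFP embryos. GFP embryo 3 lay well below the rest of its group, and the difference was -0.02 (SE 0.14, exact permutation p = 0.9). Its other probe set was higher in 5 of 6 Nkx2-5+GFP embryos than in every GFP embryo, by 0.30, and the difference missed the threshold (limma adjusted p = 0.126). pfdn6.S differed by 0.01 (SE 0.0878).

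The mitochondrial chaperonin was likewise close between groups. hspd1.S, an HSP60 gene, had signals of 2825, 3161 and 3425 in GFP and of 2628, 3059 and 3462 in Nkx2-5+GFP embryos. It differed by -0.07 (SE 0.0802, exact permutation p = 0.359). hspd1.L was dim, at 62 ± 13.4 and 71.7 ± 22.9 (SD, n = 6 each). hspe1.L, the HSP10 gene, differed by 0.09 (SE 0.0898). Of the 8 mitochondrial genes, hspa9, dnaja3, dnajc11 and dnajc19 included, 0 rose and 0 fell, where 6.38% of all probe sets were called. Their median log2 difference was 0.05. At an unadjusted limma p under 0.05, 1 of them was lower, dnaja3.L at -0.25.

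hsf1, which encodes the main activator of the heat shock response, gave a dim signal. It was 11.6, 14.4 and 65.6 in GFP and 7.85, 14.4 and 43.9 in Nkx2-5+GFP embryos. GFP embryos 3 and 6 and Nkx2-5+GFP embryo 2 lay at 43.9 or above and the others at 29 or below. The difference of -0.26 (SE 0.33, exact permutation p = 0.496) leaves a 95% interval from -0.97 to 0.45. hsp70.L, the heat-inducible HSP70 gene, which stands outside the 60 by its name, was dim as well, at 28.5 ± 16.8 and 37 ± 14.7 (SD, n = 6 each), with a limma adjusted p of 0.562.

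The 11 genes with both copies measured gave a further comparison, the change of the L copy relative to the S copy. On the array 1017 genes had both copies, and the L and S copies changed by different amounts in 11 of them, or 1.08%, by limma with Benjamini-Hochberg adjustment over all such genes. Of the 11 chaperone genes 0 passed, and 0 lay under an unadjusted p of 0.05. The widest was hspb1, at -0.82 (SE 0.40, limma adjusted p = 0.31), where both copies were dim. cct8 followed at 0.33 (SE 0.21) and hspa14 at -0.24 (SE 0.15). For dnaja2, bag6 and hspa9 the copies differed in their change by 0.01, 0.03 and -0.03. The dnajb11 probe sets, which end in x_at, may not tell the copies apart. cct5b, whose symbol names no copy, was not part of it.

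For 11 of the 60 genes the array held 13 other probe sets. Of these 0 were called, where 6.38% of all probe sets were called. A 95% interval within 1.5-fold was found for 10, and 7 had the sign of the probe set described. The dnajb11 probe sets agreed in sign, at 0.40 for the other dnajb11.L and 0.15 for the other dnajb11.S probe set. The cct2.S probe sets gave -0.08 and 0.04, and the other dnajc7.L probe set 0.19 beside 0.01.

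The embryos overlapped between groups in their median chaperone level as well. The median deviation of the 60 genes from their own means lay between -0.09 and 0.03 on the log2 scale in GFP embryos and between -0.01 and 0.05 in Nkx2-5+GFP embryos. GFP embryo 3 was lowest, with 20 of 60 genes above their mean, and Nkx2-5+GFP embryo 3 highest, with 41. For the CCT genes the median deviations reached from -0.10 to 0.07 in GFP and from -0.09 to 0.14 in Nkx2-5+GFP embryos, which overlap. The SD within groups had a median of 0.20 over the 60 genes and of 0.28 over all probe sets, which were dimmer. At or above the median level it had a median of 0.17 over 45 chaperone genes and of 0.20 over all probe sets. Over the 60 genes the SD ran from 0.0511 for dnajc7.L to 0.689 for bag3.L.

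**Figure D5:**
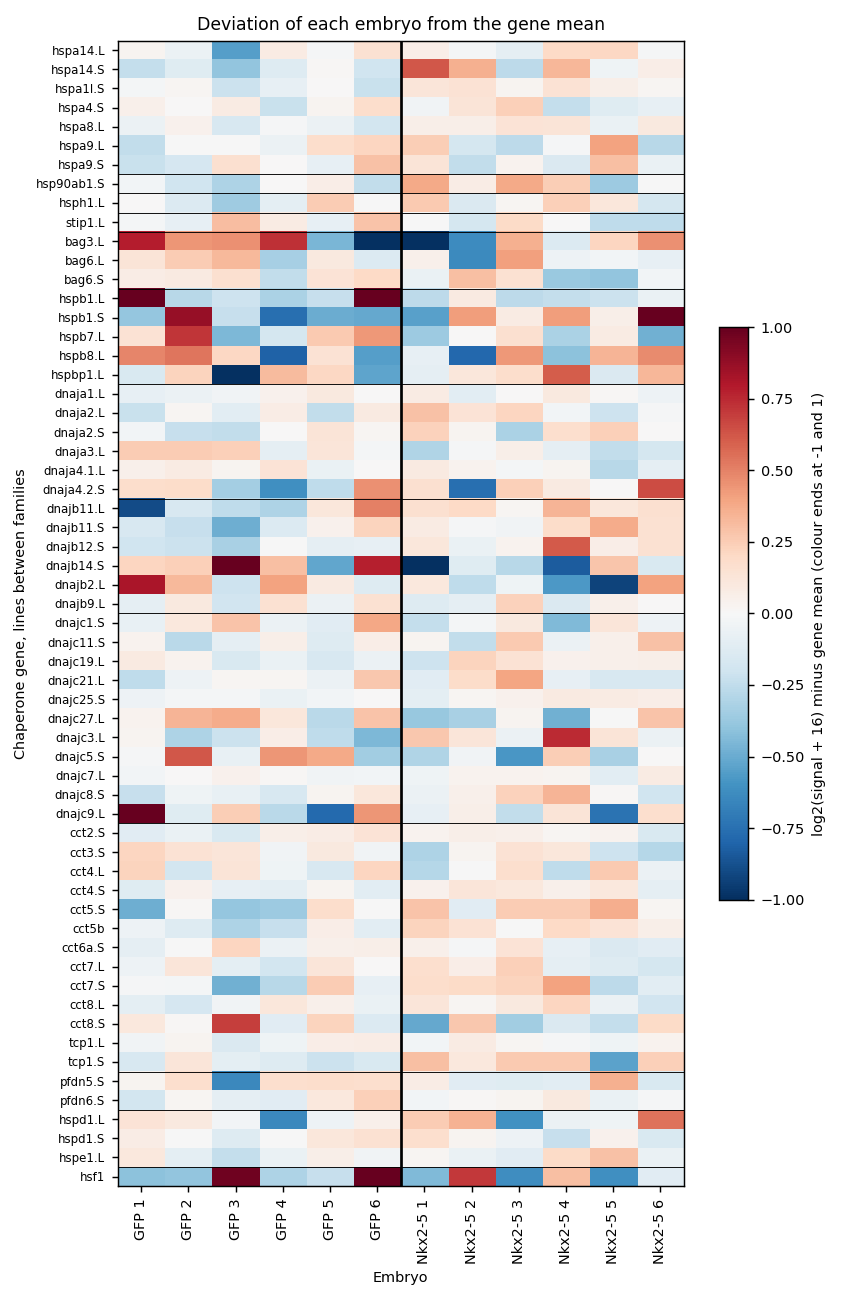
Rows are the 60 genes, ordered by family with lines between families, columns are the 12 embryos, and colour is log2(signal + 16) minus the mean of the gene over all embryos, with colours ending at -1 and 1. No block of rows is red or blue through all embryos of 1 group. The strongest colours lie in dim genes such as hsf1, bag3.L and hspb1.S and in the brighter dnajb14.S.

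Other genes of protein folding, outside the 60, were counted from lists of co-chaperones, folding factors, heat shock regulators and quality control. Of 51 measured genes 1 rose, 1 fell and 49 did not pass, with a median log2 difference of 0.02, where 3.12% of all probe sets were called higher and 3.26% lower. hsf2.L, which encodes a relative of HSF1 active in embryos, rose. Its signals were 657, 842 and 918 in GFP and 900, 1279 and 1593 in Nkx2-5+GFP embryos, with all but 1 of the latter above every GFP embryo (log2 difference 0.58, SE 0.13, limma adjusted p = 0.0222). The call was lost without GFP embryo 3 (limma adjusted p = 0.0513), without Nkx2-5+GFP embryo 1 (limma adjusted p = 0.0575) and with the beta-actin ratio in the fit (limma adjusted p = 0.109).

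arl2.L, which codes for a small GTPase of tubulin folding, fell, with a log2 difference of -0.61 and an SE of 0.17 (limma adjusted p = 0.0413). Its signals were 699, 994 and 1478 in GFP and 486, 677 and 810 in Nkx2-5+GFP embryos, which overlap. The call did not hold when any embryo other than GFP embryo 5 or Nkx2-5+GFP embryo 5 was left out, with limma adjusted p-values between 0.052 and 0.0993. Nor did it hold without the intensity trend (limma adjusted p = 0.0762), with the replicate number as a block (limma adjusted p = 0.0615) and with the beta-actin ratio in the fit (limma adjusted p = 0.152). Its list had 12 measured genes, which included uri1.L and pih1d1.L, at -0.33 and 0.50, which did not pass.

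The HSP90 co-chaperones, 12 measured, and the HSP70 partners, 6 measured, had 0 called, where 6.38% of all probe sets were called. ptges3.L, the p23 gene, differed by 0.22 (limma adjusted p = 0.116) and chordc1.S by -0.26 (limma adjusted p = 0.162). The exchange factor genes of mitochondrial HSP70, grpel2.L and grpel1.L, differed by 0.64 and -0.16 (limma adjusted p = 0.0791 and 0.394), and grpel2.L passed without GFP embryo 5 (limma adjusted p = 0.0238). Mitochondrial quality control, 8 measured, had 0 called, with timm44.S at -0.33 (limma adjusted p = 0.0539) and clpx.L at -0.29. timm44.S, which anchors HSP70 at the import channel, passed without Nkx2-5+GFP embryo 5 (limma adjusted p = 0.0304). It also passed with the replicate number as a block (limma adjusted p = 0.0493) and when the dimmer probe sets were left out (limma adjusted p = 0.0394). Of all probe sets, 1484 were called without GFP embryo 5 and 1485 without Nkx2-5+GFP embryo 5, beside 988 with all embryos. The list of disaggregation and delivery to degradation, 9 measured, had 0 called as well, with nploc4.S at -0.40. That list also held bcl2l1.S, at 0.45, which is not known for either function. serpinh1.S, a collagen chaperone of the ER, differed by 0.38 without passing.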

How the data were processed

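Single whole embryos were measured on 1-colour Affymetrix arrays, 6 in each group, from 100 ng of total RNA amplified in 2 cycles with a biotin label, per the labels' protocols. The deposited table holds intensity values that the authors computed by MAS5, as stated in the submitters' processing notes. For MAS5, version and scaling target were not given in the sources used here, and detection calls were not used. The 2% trimmed mean of every array was 1000.1, so levels are relative to each array. MAS5 signals of different probe sets are not relative abundances.

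Gene symbols came from the platform annotation. Of 15611 probe sets, 120 controls were left out, and of the other 15491 the annotation named 1 gene for 9304 and several for 195, while 5992 were unnamed here. Signals were taken as log2(signal + 16) with no further scaling, so that differences of dim probe sets are understated. The groups were compared with limma 3.58.1 in R 4.3.3 (lmFit, then eBayes with an intensity trend), with 2-sided p-values adjusted by Benjamini-Hochberg over all 15491 probe sets, and called changed at an adjusted p under 0.05. This procedure was tested on simulated data. Exact permutation tests ran over all 924 assignments of the 12 embryos, were 2-sided and can give no p under 0.00216. Their p-values were not adjusted for the number of genes and made no calls. The copies of a gene were compared with the same procedure on the difference of their log2 values.

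No array correlated with another above 0.982, so none was counted as a repeat. The number of arrays limits the precision, with 95% intervals of 2.12 SE on either side. The genes, families and lists were chosen with earlier results of these data known, and the lists of markers and of other folding genes were written by hand. All genes of the HSP70, HSP60, HSP10, HSP110, HSP90, CCT, prefoldin and BAG families, stip1.L and hsf1 were to be given by value. In the hspb, dnaja, dnajb and dnajc families this held for the called, the brightest and the dimmest gene and that of the largest difference, and the others named there were chosen after their values were seen. Alternatives were other pseudocounts, quantile or median scaling, no intensity trend, robust or weighted fits, leaving out dimmer probe sets, a replicate block, the beta-actin ratio as a covariate, the mean of all probe sets of a symbol and leaving out each embryo.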

Additional observations from a re-analysis of the deposited data

Results flagged for a closer look

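In 10 of 120 groups of 6 embryos, 1 embryo stood apart from the others by Dixon's test, where chance gives about 5% of groups. In GFP embryos, bag6.S was low in embryo 4 at 2104 (others 2633 to 2878), hspd1.L in embryo 4 at 35.8 (others 62.2 to 72.6), and hspa14.L in embryo 3 at 196 (others 283 to 329). pfdn5.S was low in GFP embryo 3 too, at 1292 (others 2074 to 2292). High values in GFP embryo 2 were found for tcp1.S, at 4334 (others 3435 to 3726), and for the dim hspb1.S, at 36.5 (others 1 to 8.53).

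In Nkx2-5+GFP embryos, cct2.S and cct4.S were low in embryo 6, at 6019 (others 6779 to 6966) and at 7470 (others 8198 to 8651). tcp1.S was low in embryo 5 at 2742 (others 4273 to 4893), and dnajb12.S was high in embryo 4 at 1319 (others 815 to 949). Nkx2-5+GFP embryo 6 is the array with the high BioB control, and the part of that array in its 2 low CCT values was not tested.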

How the results depend on the processing

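The count of all called probe sets was 988, and it was 437 without the intensity trend, 160 with the beta-actin ratio in the fit and 285 to 1485 when single embryos were left out. Only leaving out GFP embryo 5 (1484) or Nkx2-5+GFP embryo 5 (1485) raised it, and every other embryo left out lowered it. The count of chaperone genes called higher, 1, was 0 after quantile normalization, after median scaling, without the trend and with the beta-actin ratio, and it ran from 0 to 3 with single embryos left out. The count called lower, 0, ran from 0 to 1. Of 1305 gene values under 22 alternatives, 1216 kept their direction and side of the threshold, 14 lost a call, 5 gained one and 70 changed sign. The changed signs fell in 17 genes with differences of at most 0.29 in size, and 43 genes kept their sign throughout. The median of the 60 genes ran from -0.01 to 0.07. Genes of differences near 0 and genes of low signal are limited by the spread between embryos.

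With the beta-actin ratio in the fit, the sign changed for bag3.L (0.14), cct2.S (-0.01), cct4.L (0.00), cct7.L (-0.06), tcp1.L (-0.01), dnaja1.L (-0.00), dnaja4.2.S (-0.02), dnajc21.L (-0.06), hspa9.S (-0.04) and pfdn6.S (-0.08). After quantile normalization it changed for cct2.S (-0.02), tcp1.L (-0.02), dnaja1.L (-0.02), dnajc21.L (-0.00), dnajc7.L (-0.02), hspa4.S (0.01) and pfdn5.S (0.02). After median scaling it changed for dnajb9.L (0.03), hspa4.S (0.01), hspa9.L (0.02), pfdn5.S (0.03) and hspb8.L (0.03), and with array weights for hspa4.S (0.02). Leaving out single embryos gave ranges across 0 for bag6.L (-0.20 to 0.01), cct2.S (-0.01 to 0.05), cct7.L (-0.02 to 0.07), tcp1.L (-0.01 to 0.04), dnaja1.L (-0.01 to 0.03), dnajb9.L (-0.07 to 0.01), dnajc21.L (-0.06 to 0.08), dnajc7.L (-0.00 to 0.03), hspa4.S (-0.09 to 0.01), hspa9.L (-0.11 to 0.02), hspa9.S (-0.06 to 0.06), pfdn5.S (-0.15 to 0.01), pfdn6.S (-0.02 to 0.06) and hspb8.L (-0.17 to 0.15). The cause of these changes was not tested.

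The labels do not say whether the replicate numbers pair the embryos, and correlations between embryos gave no clear pairing. Deviations of same-numbered embryos correlated between -0.34 and 0.31, and 2 of 6 embryos correlated best with their own number. With the replicate block 779 probe sets were called, and of the chaperones dnajc3.L passed (0.38, limma adjusted p = 0.0402) while cct5b did not. The count of chaperone copies that changed by different amounts was 0 in every alternative in which it was computed.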
